A study of Mus musculus with 23 samples.

Results

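The 8 genes described here are Pla2g4a, Ptgs1, Ptgs2 and Ptges, which act in prostaglandin synthesis, Saa3 and Lcn2, which encode acute-phase proteins, and Anxa1 and Crispld2, which are linked to glucocorticoid action. They were taken by symbol from the 55487 gene identifiers of the count table, each matched 1 row, and 7 of the 8 were among the 15748 genes that passed the expression filter. Lcn2 did not pass and is given by its counts. RNA-seq had been performed on primary murine embryonic fibroblasts (MEFs, connective tissue cells grown from embryos) of FVB/NJ mice. The cells carried 1 of 4 homozygous genotypes of the glucocorticoid receptor (GR). GRwt/wt cells had the unmodified receptor, GRD/D cells an alanine-to-threonine change in the dimerization surface of the domain that binds DNA, GRL/L cells a ligand-binding domain with isoleucine replaced by alanine, and GRD+L/D+L cells both changes. Each genotype was exposed for 5 h either to 10 nM dexamethasone (Dex), a man-made glucocorticoid that binds GR, or to vehicle. The 23 libraries formed 8 groups with 3 libraries each, except GRD/D vehicle with 2. Within a genotype, each culture was from another mouse. For each gene the tests used 1 estimate of the spread between libraries, shared by all 8 groups. Vehicle and Dex libraries were fitted as unpaired. All cultures were primary cells from embryos of heterozygous intercrosses, and the receptor changes were made in the germline, so that every cell type in a culture carried them.

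Prostaglandins are made from arachidonic acid, which the cytosolic phospholipase A2 encoded by Pla2g4a releases from membranes. The cyclooxygenases COX-1 (Ptgs1, usually constitutive) and COX-2 (Ptgs2, inducible by inflammatory signals) turn it into prostaglandin H2, from which the microsomal synthase encoded by Ptges makes prostaglandin E2. Serum amyloid A3 (Saa3) and lipocalin 2 (Lcn2, an iron-siderophore binding protein) are acute-phase proteins that cells outside the liver also make, while annexin A1 (Anxa1) and Crispld2, a secreted protein that binds lipopolysaccharide, are known as glucocorticoid-induced genes with anti-inflammatory roles. Fibroblasts are a known source of prostaglandin E2, and glucocorticoids are known to restrain Ptgs2 in inflamed cells.

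Library totals ranged from 16452539 to 23117080 counts. All 10 fibroblast markers examined were detected in every library. The ligand response was checked with Fkbp5, a direct GR target, which had a log2 fold change (LFC) of 3.49 in GRwt/wt, 1.68 in GRD/D, 0.12 in GRL/L and 0.07 for GRD+L/D+L (adjusted p from edgeR 2.67e-06, 0.137, 1 and 1). GRwt/wt vehicle replicate 1 stood apart from the other libraries, with a highest Spearman correlation to any other library of 0.916, and the deviations of its genes from their medians followed transcript GC content (rho 0.684 across 15735 genes). GRwt/wt vehicle replicate 3 had a summed level of 12 macrophage markers of 6169 CPM (counts relative to the TMM-scaled library total), while vehicle replicates 1 and 2 had 41.9 and 19.1 CPM, and the sum was 18.4 to 124.3 CPM in GRwt/wt Dex, 333.4 to 2226 CPM in GRD/D, 406.9 to 1006 CPM in GRL/L and 6.50 to 104.4 CPM in GRD+L/D+L. In such bulk RNA, fewer cells of a type and less RNA per cell cannot be told apart.

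The members lie on 5 chromosomes of GRCm38 and all are protein coding. Ptgs1 (chr2:36230426-36252272, plus strand) shares 3.81% of its exonic bases with the antisense gene Gm43621, and because the strandedness of the counting was not given in the sources used here, these counts could not be separated. None of the other 7 shares an exonic base with another annotated gene. The bases just upstream of the start are shown for Ptgs2, the inducible cyclooxygenase, and for Saa3 and Crispld2, the members called between genotypes. They are the 250 bases before the RefSeq start in GRCm38.p6, written 5′ to 3′ on the strand of the gene, with matches to the letters searched in capitals. The windows were chr1:150099781-150100030 (plus strand) for Ptgs2, chr7:46715677-46715926 (minus strand) for Saa3 and chr8:119992188-119992437 (plus strand) for Crispld2.
Ptgs2: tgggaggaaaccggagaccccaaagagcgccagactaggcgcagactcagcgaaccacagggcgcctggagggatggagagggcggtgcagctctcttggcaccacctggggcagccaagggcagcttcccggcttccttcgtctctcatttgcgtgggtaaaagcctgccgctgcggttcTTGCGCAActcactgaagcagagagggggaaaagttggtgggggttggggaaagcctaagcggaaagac
Saa3: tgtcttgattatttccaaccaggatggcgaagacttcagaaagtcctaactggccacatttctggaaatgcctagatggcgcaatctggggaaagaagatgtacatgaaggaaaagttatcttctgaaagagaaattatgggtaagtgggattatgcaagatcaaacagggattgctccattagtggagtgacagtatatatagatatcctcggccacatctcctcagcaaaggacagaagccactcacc
Crispld2: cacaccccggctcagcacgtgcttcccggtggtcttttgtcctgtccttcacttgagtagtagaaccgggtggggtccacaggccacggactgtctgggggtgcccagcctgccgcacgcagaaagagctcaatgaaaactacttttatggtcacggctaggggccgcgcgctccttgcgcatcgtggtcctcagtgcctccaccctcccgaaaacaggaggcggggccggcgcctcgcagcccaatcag

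These windows were searched on both strands for the GR half-site AGAACA, the full palindrome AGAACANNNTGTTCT that contains it, the C/EBP palindrome TTGCGCAA, the TATA box TATAAA and the kappa-B decamer. Ptgs2 held the C/EBP palindrome, ending 62 bases before its start, a match present in 0.164% of the 32851 RefSeq promoter windows. Neither Saa3 nor Crispld2 held any of the 5. Of the other members, Ptgs1, Ptges and the second of 2 Pla2g4a windows held the half-site once each, which 16.1% of all windows did, and Anxa1 held a TATA box 27 bases before its start, as did 12.4% of windows at any position. The kappa-B decamer was in 7.25% of all windows and the full palindrome in 0.00913%, and no member held either. Only the letters of these short windows were examined, which is a description and not evidence of binding or its absence.

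Among the members, levels per length of transcript spanned a wide range. Anxa1 had the highest median over the 23 libraries, 249 CPM per kb of exon, followed by Pla2g4a with 20.0, Ptgs1 with 13, Ptgs2 with 9.85, Ptges with 8.53, Crispld2 with 4.39 and Saa3 with 0.159 CPM per kb. The median of Lcn2 was 0. The SD of log2 CPM over all libraries was 0.37 for Ptges, 0.55 for Anxa1, 0.62 for Ptgs1, 0.76 for Pla2g4a, 0.92 for Ptgs2, 1.44 for Crispld2 and 2.71 for Saa3. With all libraries Ptges thus varied least, and Saa3 varied more than 99.4% of the genes tested. Without GRwt/wt vehicle replicate 1 the SD of Pla2g4a was 0.32 and that of Anxa1 0.32, both below the 0.37 of Ptges.

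With all libraries and no replicate block, no member was called with Dex in any genotype. Among the alternatives tried, Crispld2 was called in GRwt/wt with a replicate block (1.26% of all genes called) and Anxa1 without GRwt/wt vehicle replicate 2 (2.39%). A gene was called when its adjusted p (Benjamini-Hochberg, edgeR quasi-likelihood test) did not exceed 0.05 and its LFC was 1 or more in either direction. Of the 7 members tested, 0 were called with Dex in GRwt/wt, where 0.159% of all genes were called, and 1 (Anxa1) had an unadjusted p under 0.05. When only GRwt/wt was fitted, 0% of 14156 genes were called. In each mutant 0 members were called, as were 0% of all genes in each. DESeq2 also called 0 members in each genotype, and over all genes it called 1.82% in GRwt/wt, 0.0127% in GRD/D, 0% in GRL/L and 0.0318% for GRD+L/D+L. Over all genes, 2454 had an unadjusted p under 0.05 in GRwt/wt, 154 in GRD/D, 43 in GRL/L and 54 for GRD+L/D+L. The median LFC of the 7 members was 0.45 in GRwt/wt, against -0.01 over all genes. It was the LFC of Pla2g4a, which was -0.04 without GRwt/wt vehicle replicate 1. The median was -0.18 in GRD/D, -0.02 in GRL/L and 0.04 for GRD+L/D+L.

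Of the members tested, Anxa1 had the lowest unadjusted p for Dex in GRwt/wt (edgeR, 0.0373). Crispld2 (0.0896) was the only member whose Dex libraries there all lay above its vehicle libraries. Its level was 29.1, 16.4 and 37.8 CPM in the vehicle libraries (replicates 1, 2 and 3) and 75.9, 44.0 and 55.7 CPM with Dex, or 27.8 ± 10.8 and 58.5 ± 16.2 CPM (mean ± SD, n = 3). All Dex libraries were above all vehicle libraries, with an LFC of 1.07 (SE 0.60) that did not pass (adjusted p 0.406). With a block for each replicate number within a genotype, Crispld2 was called (1.12, adjusted p 0.0197), as were 1.26% of all genes. The log2 differences of the same-numbered libraries were 1.38, 1.42 and 0.557. Deviations of same-numbered GRwt/wt libraries were not correlated throughout (r 0.525, 0.00107 and -0.0601), so that the pairing behind these values is uncertain. In GRD/D it was 14.2 and 23.4 CPM with vehicle and 16.4, 47.4 and 23.8 CPM with Dex. The groups overlapped in GRD/D, with an LFC of 0.63 (SE 0.68), and the highest value was a single Dex library. In GRL/L the vehicle libraries had 20.99, 42.1 and 11.3 CPM and the Dex libraries 21.3, 38.2 and 10.5 CPM. The spread among GRL/L libraries of 1 treatment exceeded the difference between treatments, with an LFC of -0.09 (SE 0.59). Same-numbered GRL/L libraries had log2 differences of 0.0236, -0.141 and -0.105. In GRD+L/D+L it was 7.67, 2.06 and 6.24 CPM with vehicle and 6.42, 1.72 and 6.02 CPM with Dex, with an LFC of -0.17 (SE 0.62). The log2 differences of its same-numbered libraries were -0.255, -0.249 and -0.0514, and with the replicate block the LFC was -0.18 (adjusted p 1).

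Anxa1, a phospholipase-inhibiting annexin, had in GRwt/wt 171.9, 983 and 700.2 CPM with vehicle and 1155, 983 and 1127 CPM with Dex. The vehicle and Dex replicates 2 were nearly equal, and most of the difference came from vehicle replicate 1. The LFC of 0.82 (SE 0.36, adjusted p 0.289) dropped to 0.37 (adjusted p 0.338) without that library, whereas without vehicle replicate 2 it was 1.32 and passed both thresholds (adjusted p 0.0492). Without vehicle replicate 2, 2.39% of all genes were called. Levels in the other genotypes were closer together. In GRD/D Anxa1 had 849 and 762 CPM with vehicle and 1016, 801 and 959 CPM with Dex, in GRL/L 576.9 to 712.7 CPM with vehicle and 592.3 to 686.5 CPM with Dex, and in GRD+L/D+L 573.3 to 761.2 and 555.4 to 761.3 CPM. Its Dex LFC in the mutants was 0.20 (GRD/D, SE 0.40), 0.03 (GRL/L, SE 0.36) and 0.04 (GRD+L/D+L, SE 0.36).

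**Figure D1:**
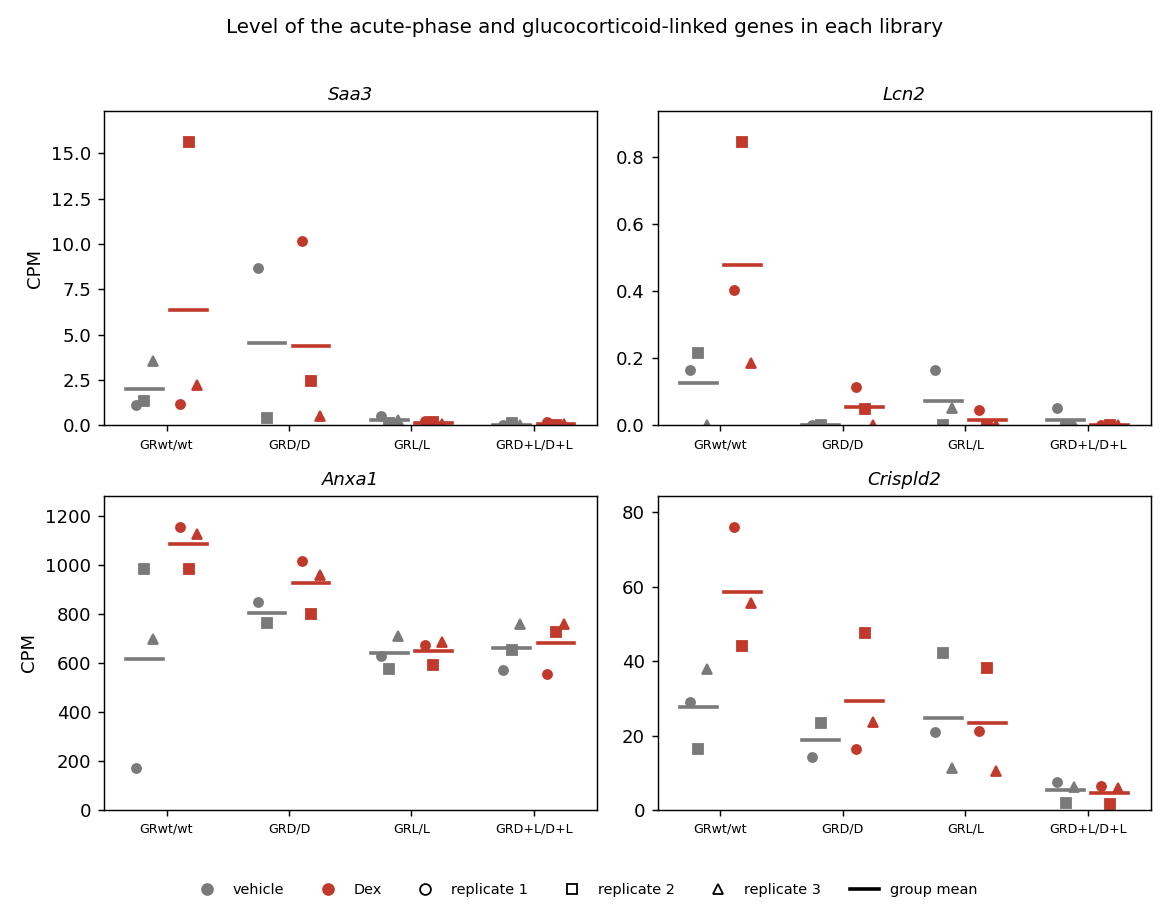
Level of Saa3, Lcn2, Anxa1 and Crispld2 in CPM (linear vertical axes from 0) by genotype, with vehicle in grey, Dex in red, a symbol for each replicate number and a line at the group mean. Crispld2 lay at 1.72 to 7.67 CPM in the 6 GRD+L/D+L libraries and at 10.5 CPM or more in the other 17, and 1 GRwt/wt Dex library held most of the Saa3 counts of its group.

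None of the prostaglandin genes was called with Dex in any genotype. Ptgs2 in GRwt/wt was 5.19, 50.2 and 21.02 CPM with vehicle and 26.1, 13.9 and 33.0 CPM with Dex. The vehicle libraries held both the lowest and the highest value, so that the LFC of -0.07 (SE 0.58) changed to -0.54 without vehicle replicate 1 and to 0.89 without vehicle replicate 2. In GRD/D Ptgs2 had 69.7 and 92.7 CPM with vehicle and 61.0, 22.95 and 74.7 CPM with Dex, with an LFC of -0.62 (SE 0.63). The GRL/L libraries had 41.5, 31.5 and 54.6 CPM with vehicle and 45.1, 32.1 and 62.7 CPM with Dex, and the GRD+L/D+L libraries 49.5, 31.6 and 62.8 CPM and 45.3, 34.5 and 72.7 CPM. Vehicle and Dex ranges overlapped in all 4 genotypes. The log2 differences of the same-numbered Ptgs2 libraries were 0.119, 0.0248 and 0.2 in GRL/L and -0.13, 0.128 and 0.211 for GRD+L/D+L. With the replicate block 0% of all genes were called with Dex in either.

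Pla2g4a, the enzyme at the head of the pathway, was 12.1, 122.7 and 68.1 CPM with vehicle in GRwt/wt and 100.8, 78.5 and 98.9 CPM with Dex. The LFC of 0.45 (SE 0.45, adjusted p 0.657) was -0.04 without vehicle replicate 1. In GRD/D its level was 131 and 140.3 CPM with vehicle and 129.5, 90.6 and 138.4 CPM with Dex. In GRL/L Pla2g4a ranged from 116.5 to 138.4 CPM and in GRD+L/D+L from 117.3 to 179.9 CPM over both treatments. Ptgs1 in GRwt/wt was 138.5, 43.4 and 26.2 CPM with vehicle and 97.1, 29.7 and 43.1 CPM with Dex, and the LFC of -0.29 (SE 0.56) was 0.70 without vehicle replicate 1. Replicate 1 was the highest in both GRwt/wt groups, and the range of Ptgs1 in the mutants, 25.7 to 88.1 CPM, lay within that of GRwt/wt apart from its lowest library, GRD/D Dex replicate 2. Ptges was 40.7, 42.2 and 25.4 CPM with vehicle in GRwt/wt and 30.7, 49.7 and 43.4 CPM with Dex, with an LFC of 0.19 (SE 0.28), and 22.5 to 53.5 CPM in the mutants.

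**Figure D2:**
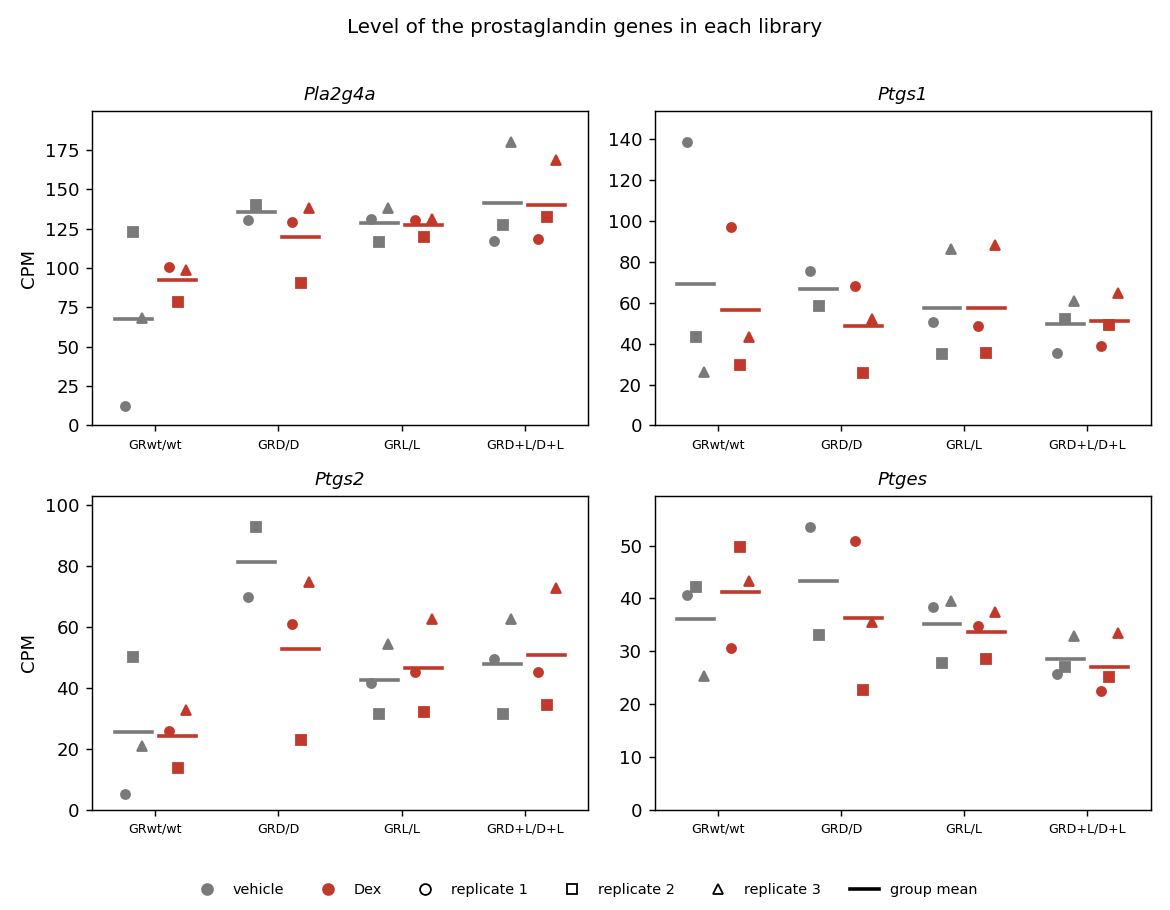
Level of Pla2g4a, Ptgs1, Ptgs2 and Ptges in CPM (linear vertical axes from 0) by genotype, with vehicle in grey, Dex in red, a symbol for each replicate number and a line at the group mean. GRwt/wt vehicle replicate 1 (circle) had the lowest Pla2g4a (12.1 CPM) and Ptgs2 (5.19 CPM) and the highest Ptgs1 (138.5 CPM) of the 23 libraries.

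In GRwt/wt vehicle replicate 1, the log2 CPM of Ptgs2, Pla2g4a and Anxa1 lay 3.11, 3.39 and 2.08 below, and that of Ptgs1 1.45 above, the median of the gene over all libraries (deviations of -3.11, -3.39, -2.08 and 1.45). The GC content of the longest transcript was 40.0% for Ptgs2, 44.1% for Pla2g4a and 43.6% for Anxa1. It was 51.0% for Ptgs1, 53.1% for Ptges and 53.6% for Crispld2, with deviations of 0.28 and 0.47 for the latter pair. The part of GC content in these values was not tested gene by gene.

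Ptgs2 and Pla2g4a were the most alike of the members. Their Spearman rho over the 23 libraries was 0.846, and 0.824 without GRwt/wt vehicle replicate 1. Pla2g4a was the gene most like Ptgs2 among all tested, followed by Pde1c (0.833), a phosphodiesterase, and Dnaja2 (0.809), a cochaperone. The genes most like Pla2g4a were Rnf14 (0.88), Ptgs2 and Fam198b (0.842). These correlations describe libraries that share genotype, culture and base composition, and carry no test.

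**Figure D3:**
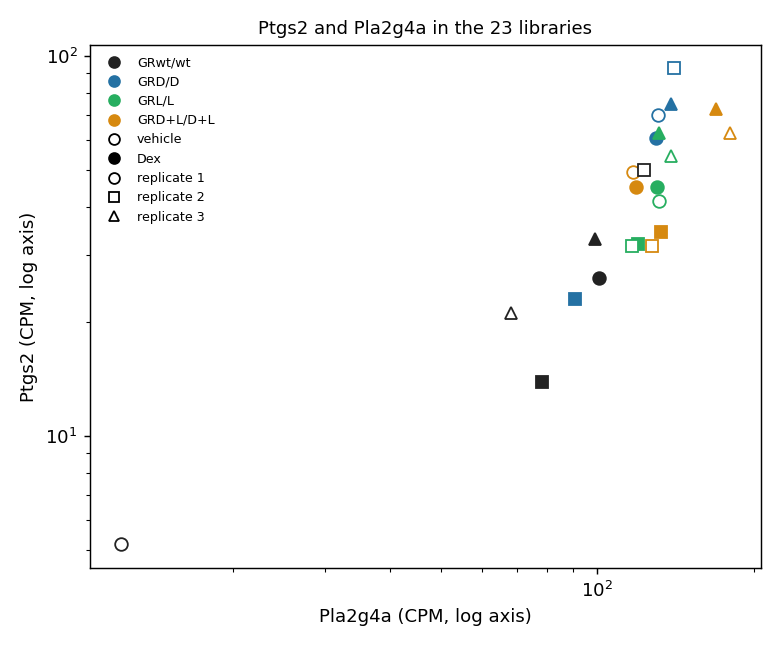
Ptgs2 against Pla2g4a, both in CPM on log axes, in each of the 23 libraries, with genotype by color, vehicle as open and Dex as filled symbols, and a shape for each replicate number. GRwt/wt vehicle replicate 1 is at the lower left (12.1 and 5.19 CPM), and the rho of 0.846 was 0.824 without it.

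For the other members, the 3 most similar genes were Dnaja4 (0.868), Ephx2 (0.769) and Sidt2 (0.766) for Ptgs1, and Sumf1 (0.857), Gng4 (0.856) and Sult4a1 (0.817) for Ptges. Anxa1 was nearest to Sgk1 (0.936), a glucocorticoid-induced kinase, Fam3c (0.933) and Ppp3r1 (0.928), and Crispld2 to Gng7 (0.857), Mbp (0.843) and Aldh1a2 (0.834), a retinoic acid-producing enzyme. Saa3 was nearest to Ctsa (0.893), Lgmn (0.89) and Pld3 (0.882), all of which encode lysosomal enzymes. All are Spearman rho of log2 CPM over 23 libraries.

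Whether a mutant receptor changed the response to Dex was tested by the difference of the LFC from that of GRwt/wt. Of the 7 members, 0 were called for GRD/D (0% of all genes called), 0 for GRL/L (0.0254%) and 0 for GRD+L/D+L (0.0254%), and DESeq2 called 0 in each (0.0635%, 0.127% and 0.14% of all genes). No member had an unadjusted p under 0.05 in these comparisons, while 1119, 990 and 796 of all genes did. For Crispld2 GRD/D differed by -0.44 (SE 0.89), GRL/L by -1.16 (SE 0.84) and GRD+L/D+L by -1.24 (SE 0.86). With 1 library left out these ranged from -0.98 to -0.055, -1.71 to -0.54 and -1.63 to -0.84. For Anxa1 it was -0.62 (SE 0.54), -0.79 (SE 0.51) and -0.78 (SE 0.51), which became -0.18, -0.35 and -0.34 without GRwt/wt vehicle replicate 1 and -1.12, -1.297 and -1.28 without vehicle replicate 2. All 6 differences with all libraries were negative, and since they share the GRwt/wt libraries they are not separate evidence.

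Between genotypes, Saa3 and Crispld2 were called lower, and both in GRD+L/D+L. Saa3 had at most 9 counts in any GRL/L or GRD+L/D+L library, and passed the expression filter through GRwt/wt and GRD/D libraries only. Its lower calls are thus not independent of that filter. In vehicle, 0 members were called in GRD/D against GRwt/wt (0.00635% of all genes), 0 in GRL/L (7.78%) and 2 for GRD+L/D+L (8.32%), namely Saa3 and Crispld2. With Dex, 0 were called in GRD/D (0.254%), 1 in GRL/L (2.59%), namely Saa3, and 2 in GRD+L/D+L (2.75%), again Saa3 and Crispld2. DESeq2 gave the same numbers of calls, while it called 0.191%, 9.79% and 10.7% of all genes in vehicle and 1.77%, 4.89% and 5.18% with Dex. At an unadjusted p under 0.05, 1 further member in each of GRD/D vehicle (Ptgs2), GRL/L vehicle (Saa3), GRD+L/D+L vehicle (Pla2g4a), GRL/L Dex (Crispld2) and GRD+L/D+L Dex (Ptges) would be named, where 1946, 5841, 5599, 3579 and 3291 of the 15748 genes also passed, in that order. The vehicle and the Dex comparisons are read side by side.

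The level of Crispld2 separated GRD+L/D+L from all other cells. Its 6 GRD+L/D+L libraries, at 1.72 to 7.67 CPM, lay below each of the other 17, the lowest of which was a GRL/L Dex library at 10.5 CPM. Same-numbered vehicle and Dex libraries were taken to share a culture, so that the 6 are not independent. For this and the other separations of libraries given here, the share of all genes that separated likewise was not counted. Relative to GRwt/wt the LFC of Crispld2 in GRD+L/D+L was -2.39 (SE 0.63, adjusted p 0.0152) in vehicle and -3.63 (SE 0.66, adjusted p 0.00622) with Dex, equal to 0.191 and 0.0808 of the GRwt/wt level. In GRD/D the LFC was -0.56 (SE 0.67) in vehicle and -1.002 (SE 0.60) with Dex, and in GRL/L -0.17 (SE 0.59) and -1.33 (SE 0.60, adjusted p 0.198). The vehicle call was lost without GRD+L/D+L vehicle replicate 2 (-1.997, adjusted p 0.0702) and without both GRwt/wt vehicle replicates 1 and 3 (-1.65, adjusted p 0.166), and both calls were lost when only these 2 genotypes were fitted, with LFC of -2.35 (adjusted p 0.0668) and -3.61 (adjusted p 0.0651).

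After these values were seen, GRD+L/D+L was also compared with the single mutants, since each shares 1 of its changes. Against GRL/L, 0 of the 7 members were called in vehicle (0.0953% of all genes) and 0 with Dex (0.121%), although the LFC of Crispld2 was -2.22 (SE 0.63, adjusted p 0.211) and -2.30 (SE 0.63, adjusted p 0.20), with an unadjusted p of 0.00247 and 0.00196. DESeq2 called 1 member, Crispld2, in each of these comparisons (adjusted p 0.0253 and 0.0194), as well as 1.1% and 1.03% of all genes. Against GRD/D, 0 members were called in vehicle (1.02%), where Crispld2 had an LFC of -1.83 (SE 0.67, adjusted p 0.181), and 2 with Dex (3.61%), namely Crispld2 (-2.63, SE 0.64, adjusted p 0.0203) and Saa3. The Dex call of Crispld2 was lost without GRD/D Dex replicate 2 (-2.09, adjusted p 0.0964) or GRD+L/D+L Dex replicate 2 (-2.23, adjusted p 0.0928).

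Saa3 was low in all cells and, by group mean, lowest in the mutants of the ligand-binding domain. In GRwt/wt it had 20, 25 and 78 counts with vehicle (1.10, 1.34 and 3.53 CPM) and 23, 333 and 36 counts with Dex (1.16, 15.6 and 2.25 CPM). Replicate 2 held 333 of the Dex counts, the others 23 and 36, so that the LFC with Dex, 1.66 (SE 1.10, adjusted p 0.493), was -0.24 without it. In GRD/D Saa3 had 176 and 8 counts with vehicle (8.67 and 0.414 CPM) and 178, 50 and 10 with Dex (10.2, 2.46 and 0.543 CPM). Replicate 1 was the highest in both GRD/D groups. In GRL/L the counts were 9, 3 and 6 with vehicle and 5, 3 and 1 with Dex, and in GRD+L/D+L 0, 3 and 0 with vehicle and 3, 0 and 1 with Dex. Every GRD+L/D+L and GRL/L library, at 0.50 CPM or less, was below every GRwt/wt library, at 1.10 CPM or more. The GRD/D libraries were not all above those of GRL/L, since GRD/D vehicle replicate 2, at 0.414 CPM, lay below GRL/L vehicle replicate 1, at 0.50 CPM.

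Since the fitted LFC depends on the prior count at such counts, the ratio of the pooled counts is given beside it. Saa3 was 6.50 times higher in GRwt/wt than in GRL/L with vehicle (95% counting interval 3.94 to 11.3) and 44.4 times with Dex (23.1 to 97.7). Against GRD+L/D+L the ratio was 40.5 with vehicle (13.5 to 199) and 91.3 with Dex (35.4 to 337). These exact binomial intervals cover counting error only, and not the spread between cultures. Without GRwt/wt Dex replicate 2 the Dex ratios were 10.7 (5.25 to 24.4) for GRL/L and 21.9 (8.12 to 83.1) for GRD+L/D+L. With GRwt/wt vehicle replicate 3 left out, the vehicle ratios were 3.80 (2.16 to 6.98) and 23.7 (7.62 to 119). The corresponding fitted LFC was -2.61 (SE 1.23, adjusted p 0.132) and -5.32 (SE 1.37, adjusted p 0.0315) for GRL/L and -5.14 (SE 1.53, adjusted p 0.027) and -6.29 (SE 1.503, adjusted p 0.0261) for GRD+L/D+L. In GRD/D the LFC was 1.18 (SE 1.18) with vehicle and -0.53 (SE 1.06) with Dex, and the sign changed without GRD/D vehicle replicate 1 (-2.23) and without GRwt/wt Dex replicate 2 (1.37), respectively.

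All 3 Saa3 calls against GRwt/wt were lost when single libraries were left out, though the LFC stayed negative. Without GRwt/wt Dex replicate 2 the Dex LFC was -3.42 in GRL/L (adjusted p 0.118) and -4.39 for GRD+L/D+L (adjusted p 0.084), and without GRwt/wt vehicle replicate 3 the vehicle LFC in GRD+L/D+L was -4.38 (adjusted p 0.0578). The GRL/L call was also lost without GRwt/wt Dex replicate 3 (-5.72, adjusted p 0.0526) or any of the GRL/L Dex libraries (-5.78 to -4.93, adjusted p 0.10 to 0.127). The GRD+L/D+L calls were lost without any of its vehicle libraries (-8.25 to -4.598, adjusted p 0.0547 to 0.089) and without its Dex replicates 2 or 3 (-5.76 and -6.15, adjusted p 0.122 and 0.0952). When only the compared genotypes were fitted, none of the 3 was called (adjusted p 0.0558 to 0.13), with LFC of -5.32 for GRL/L and of -5.13 and -6.29 for GRD+L/D+L. Against GRD/D, the LFC of Saa3 in GRD+L/D+L was -6.32 (SE 1.59, adjusted p 0.0523) with vehicle and -5.76 (SE 1.49, adjusted p 0.0284) with Dex, with the latter called. The Dex call was lost without GRD/D Dex replicate 1 (-4.22, adjusted p 0.124) and without any of the 3 GRD+L/D+L Dex libraries (-6.95 to -5.22, adjusted p 0.0563 to 0.115). DESeq2, which called 2.98% of all genes there, called Saa3 in vehicle as well (adjusted p 0.00161), and edgeR did so without any 1 of 6 libraries outside these 2 groups. The vehicle LFC was -2.89 (adjusted p 0.805) without GRD/D vehicle replicate 1, which held 176 of the 184 counts, and -9.43 (adjusted p 0.154) without GRD+L/D+L vehicle replicate 2.

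Macrophages are a known source of Saa3, and the macrophage markers differed between groups. Their sum was 406.9 to 1006 CPM in the 6 GRL/L libraries with all 12 markers detected, and it was higher in each of these than in 5 of the 6 GRwt/wt libraries. In GRD+L/D+L the sum was 6.50 to 104.4 CPM with 8 to 12 markers detected, Ptprc, Tyrobp, C1qa and C1qb being at 0 in Dex replicate 2. GRwt/wt vehicle replicates 1 and 2 had marker sums of 41.9 and 19.1 CPM and Saa3 levels of 1.10 and 1.34 CPM. The highest Saa3 level in GRD+L/D+L was 0.163 CPM. The part of macrophages in the Saa3 differences was not tested. The rho of Saa3 with the marker sum over the 23 libraries was 0.372. Summed neutrophil markers reached at most 0.343 CPM in any library.

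**Figure D4:**
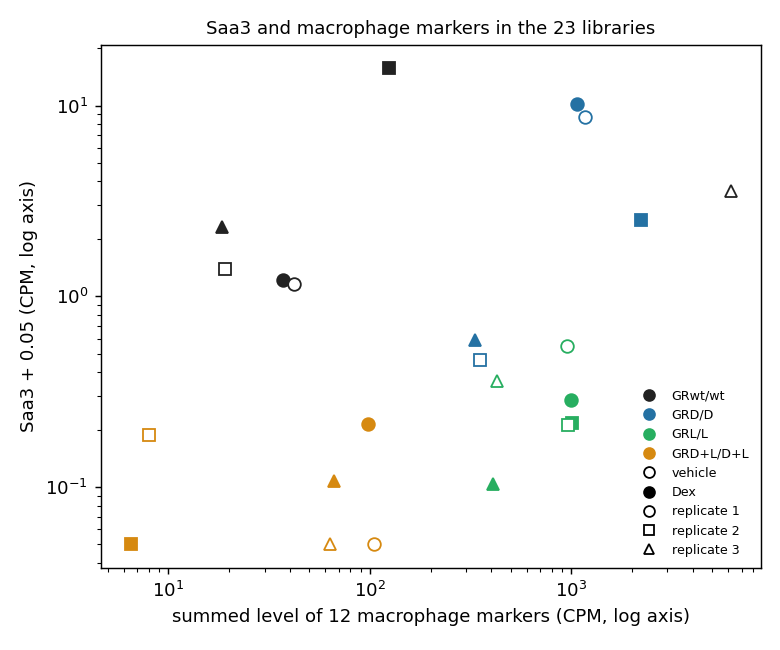
Saa3 (CPM plus 0.05, log axis) against the summed CPM of 12 macrophage markers (log axis) in each of the 23 libraries, with genotype by color, vehicle as open and Dex as filled symbols, and a shape for each replicate number. The GRL/L libraries (406.9 to 1006 CPM of markers) and the GRD+L/D+L libraries (6.50 to 104.4 CPM) were all below the 6 GRwt/wt libraries in Saa3.

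Lcn2 was near the limit of detection in these cells, with 0 to 18 counts per library. GRwt/wt had 3, 4 and 0 counts with vehicle and 8, 18 and 3 with Dex, GRD/D 0 and 0 with vehicle and 2, 1 and 0 with Dex. In GRL/L there were 3, 0 and 1 counts with vehicle and 1, 0 and 0 with Dex, and in GRD+L/D+L 1, 0 and 0 with vehicle and 0 in every Dex library. The 3 GRwt/wt Dex libraries, with 29 counts in all, were each above the Dex libraries of the mutants. Against GRL/L Dex the ratio was 29.5 (counting interval 4.9 to 1210), against GRD/D Dex 9.51 (2.95 to 48.8), and against GRD+L/D+L Dex at least 9-fold higher, computed with 3 counts over the group. The first of these rests on 1 GRL/L count. All 3 rest largely on GRwt/wt Dex replicate 2, with 18 of the 29 counts, and were not computed without it. When all genes were tested without an expression filter, Lcn2 was not called in GRL/L (adjusted p 0.115), GRD/D (0.491) or GRD+L/D+L (0.0689) with Dex. Replicate 2, with 18 counts, was also the highest GRwt/wt Dex library for Saa3.

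Ptgs2 and Pla2g4a had positive LFC in the mutants against GRwt/wt, none of which was called. In vehicle GRD/D had a Ptgs2 LFC of 1.67 (SE 0.64, adjusted p 0.35; 1.21 without GRwt/wt vehicle replicate 1 and 2.62 without replicate 2), GRL/L one of 0.74 (SE 0.58) and GRD+L/D+L one of 0.91 (SE 0.58). Both GRD/D vehicle libraries, at 69.7 and 92.7 CPM, were above the GRwt/wt vehicle libraries, the highest of which had 50.2 CPM, while the GRD+L/D+L and GRL/L ranges overlapped with GRwt/wt. With Dex the LFC was 1.12 (SE 0.58), 0.94 (SE 0.58) and 1.07 (SE 0.58), with adjusted p of 0.518, 0.347 and 0.31. The mutant Dex libraries other than GRD/D replicate 2 and the lowest of GRL/L were above 33.0 CPM, the highest GRwt/wt Dex value.

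For Pla2g4a in vehicle, GRD/D had an LFC of 1.002 (SE 0.50), GRL/L one of 0.93 (SE 0.46) and GRD+L/D+L one of 1.07 (SE 0.46), with adjusted p of 0.416, 0.149 and 0.106. Without GRwt/wt vehicle replicate 1 these were 0.52, 0.44 and 0.59. Vehicle replicate 2 was the GRwt/wt vehicle library with the most Pla2g4a. Without it, Pla2g4a was called in GRL/L (1.68, adjusted p 0.0127) and GRD+L/D+L (1.82, adjusted p 0.0106), as was Ptgs2 (1.69, adjusted p 0.0463, and 1.86, adjusted p 0.0346). The share of all genes called without vehicle replicate 2 is not given here, and was 7.78% and 8.32% with all libraries. The Ptgs2 LFC was 0.27 (GRL/L) and 0.45 for GRD+L/D+L without vehicle replicate 1, and -0.25 and -0.082 without both vehicle replicates 1 and 3. Without both, that of Pla2g4a was 0.12 (GRD/D), 0.049 (GRL/L) and 0.19 for GRD+L/D+L. With Dex the LFC of Pla2g4a was 0.37 (SE 0.45), 0.46 (SE 0.45) and 0.59 (SE 0.45). The 6 GRD+L/D+L and GRL/L Dex libraries, at 118.6 to 168.8 CPM, were all above the GRwt/wt Dex libraries, at 78.5 to 100.8 CPM.

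Anxa1 with Dex was 983 to 1155 CPM in GRwt/wt, above the 555.4 to 761.3 CPM of all GRD+L/D+L and GRL/L Dex libraries, where the LFC of GRL/L was -0.74 (SE 0.36, adjusted p 0.233) and that of GRD+L/D+L -0.68 (SE 0.36, adjusted p 0.298). In GRD/D Dex the LFC was -0.23 (SE 0.36). Ptges was lower in GRD+L/D+L Dex, at 22.5, 25.2 and 33.5 CPM, than in 2 of the 3 GRwt/wt Dex libraries, with an LFC of -0.61 (SE 0.28, adjusted p 0.227). Neither gene was called in any comparison of genotypes, nor was Ptgs1, whose LFC ranged from -0.49 to 0.02 against GRwt/wt.

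**Figure D5:**
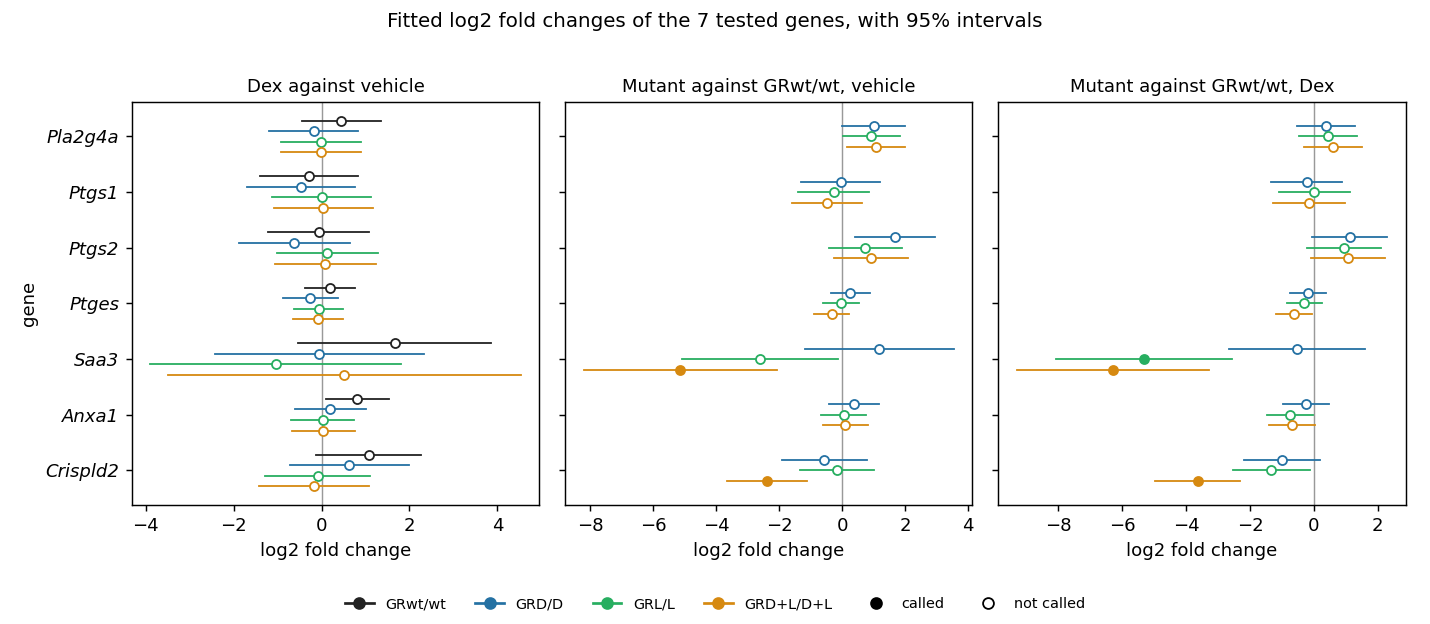
Fitted log2 fold changes (horizontal axes) of the 7 tested genes with 95% intervals, for Dex against vehicle in each genotype and for each mutant against GRwt/wt in vehicle and with Dex, with called values as filled points. The filled points are Saa3 in GRL/L with Dex and Saa3 and Crispld2 in GRD+L/D+L in both treatments.

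The other genes of these pathways were followed in lists. Of 37 further prostaglandin genes 28 were tested, of 32 further acute-phase genes 16, and of 17 annexins, annexin partners and receptors 12, and 0 were called with Dex in any genotype by edgeR. In GRwt/wt 6, 3 and 1 of them had an unadjusted p under 0.05, beside 2454 of all 15748 genes, in GRD/D 1 prostaglandin gene did and elsewhere 0, and DESeq2 called 1, a prostaglandin gene in GRwt/wt. In GRL/L vehicle, 1 prostaglandin gene was called higher and 2 lower (10.7% of those tested, against 7.78% of all genes), namely the phospholipase genes Pla2g4b (2.58) and Pla2g16 (-1.05) and Ptgr1 (-1.01), a reductase that inactivates prostaglandins. The median LFC of this list was -0.57, against -0.05 over all genes. Pla2g4b was at most 1.08 CPM in GRL/L vehicle, with 0.855 ± 0.234 CPM against 0.14 ± 0.119 CPM in GRwt/wt (n = 3). In GRD+L/D+L vehicle 1 was called (3.57%, against 8.32%), Hpgds, the hematopoietic prostaglandin D synthase (-5.56, adjusted p 0.0441). Its GRwt/wt vehicle level ranged from 0 to 53.5 CPM, the highest in the library with 6169 CPM of macrophage markers, and the part of those cells in the call was not tested. With Dex, Pla2g2e, a secreted phospholipase, was called in GRD+L/D+L (3.57%, against 2.75%), at an LFC of -3.89 (adjusted p 0.046).

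Among the acute-phase genes, 2 were called lower in GRD+L/D+L vehicle (12.5%, against 8.32% of all genes), Ptx3 (-2.93), a pentraxin, and Serping1 (-1.56), the inhibitor of complement C1. With vehicle Serping1 was 6.48 ± 1.48 CPM in GRD+L/D+L and 19.1 ± 9.56 CPM in GRwt/wt (n = 3). With Dex, Serping1 was called lower (-1.52) and Il6 higher (3.70, adjusted p 0.0412) in GRD+L/D+L (12.5%, against 2.75%). Il6 was at 0.0337 ± 0.0584 CPM in GRwt/wt Dex and 0.533 ± 0.537 CPM in GRD+L/D+L Dex, and its level did not exceed 1.15 CPM in any library. Against GRD/D, Slc22a17, the receptor of Lcn2, was called higher in GRD+L/D+L in vehicle (1.05), the single call of this list there (6.25%, against 1.02%). With Dex Slc22a17 was again called higher (1.18) and Serping1 lower (-1.13), which is 12.5% against 3.61% of all genes. Of the prostaglandin genes, Pla2g4b was called higher in that comparison (2.81, 3.57% of those tested).

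Of the annexin list, 4 of the 12 tested genes were called lower in GRL/L vehicle (33.3%, against 7.78% of all genes) and 2 with Dex (16.7%, against 2.59%), while Anxa1 itself had an LFC of 0.05 in GRL/L vehicle. These were Anxa8 (-2.46), S100a11 (-1.17), Anxa2 (-1.11) and Anxa3 (-1.07) in vehicle and Anxa3 (-1.11) and S100a11 (-1.03) with Dex. The Anxa8 level in GRwt/wt vehicle varied widely (5.39 to 111 CPM) and overlapped with GRL/L vehicle (4.36 to 18.3 CPM). Anxa2 and S100a11, which encodes a calcium-binding partner of Anxa1, were 900 ± 9.83 and 137 ± 9.44 CPM in GRL/L vehicle, against 1950 ± 688 and 308 ± 105 CPM in GRwt/wt vehicle (n = 3). In GRD+L/D+L 0 genes of this list were called in either treatment against GRwt/wt by edgeR or DESeq2, and 6 of the 12 in vehicle and 5 with Dex had an unadjusted p under 0.05, as had 5599 and 3291 of all 15748 genes.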

How the data were processed

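The deposited table held raw read counts per Ensembl gene. The authors made these counts from TruSeq libraries of total RNA, aligned to mm10 (GRCm38) with HISAT2 2.1.0 and counted with featureCounts 2.0.0 (versions per the labels). The annotation release and strandedness were not given in the sources used here. Symbols, positions and lengths were from GENCODE M21, which held 55141 of the 55487 identifiers. Counts of all 23 libraries were fitted together with edgeR 4.0.16 in R 4.3.3 (TMM scaling, filterByExpr, 1 mean per group, quasi-likelihood F test), and p-values were adjusted over all 15748 genes tested by the Benjamini-Hochberg method. Genes were called at an adjusted p not above 0.05 and an LFC of 1 or more in size. LFC used a prior count of 0.125, and SE was derived from the F statistic. Levels are CPM after TMM scaling. No 2 libraries of a group agreed within counting noise (lowest mean chi-square per gene 8.97).

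The members, lists and tests were chosen with earlier results of these data known, and the comparisons of GRD+L/D+L with the single mutants after the members' values were seen. All members were named, and from each list genes called in a comparison, at most 4 per list and family of comparisons, by size of LFC; likeness names the 3 genes with the highest Spearman rho. Calls of the acute-phase list in GRL/L, which include a gene not reported here, are left out. The script was tested on simulated counts of 15445 genes: for Dex in GRwt/wt, 22% of changes of 1 log2 unit and 96% of changes of 2 were recovered. All groups were simulated with the same spread, and only genes above a mean level that Saa3 and Lcn2 did not reach were changed. Real replicates differed more in GRwt/wt (mean chi-square per gene 64.5 to 329) than in GRD/D and GRL/L (8.97 to 32), with 14.8 to 133 for GRD+L/D+L. The simulation thus does not measure the recovery at the spread of GRwt/wt. Deviations of same-numbered vehicle and Dex libraries were correlated in GRL/L (r 0.261 to 0.576) and GRD+L/D+L (0.551 to 0.848), where the numbers were taken to pair the cultures, but not throughout GRwt/wt (-0.0601 to 0.525) or GRD/D (-0.166 and 0.24). Alternatives were RLE and upper-quartile scaling, other expression filters, adjusted p alone, a replicate block, DESeq2 1.42.0, a fit of only the genotypes compared, and leaving out libraries. The replicate block held 1 term per genotype and replicate number for the Dex comparisons and their differences. For comparisons of genotypes it held the replicate number.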

Additional observations from a re-analysis of the deposited data

How the results depend on the processing

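Of the 55 LFC of single members given with alternatives, 39 kept their direction under every alternative tried. Counts of called members (edgeR unless DESeq2 is named) moved as follows, and where no reason is given the cause was not tested. With at least 10 counts in every library, a filter that removed Saa3 before testing, 1 member was called instead of 2 in GRD+L/D+L against GRwt/wt in vehicle and 1 with Dex, 0 instead of 1 in GRL/L with Dex and 1 instead of 2 in GRD+L/D+L against GRD/D with Dex. With only the compared genotypes, 0 were called in each of the 3 comparisons with GRwt/wt. Without both GRwt/wt vehicle replicates 1 and 3, 0 were called in GRD+L/D+L vehicle, 2 in GRL/L Dex and 1 in GRD+L/D+L against GRD/D in vehicle. DESeq2 called 1 against GRL/L in each treatment and 1 against GRD/D in vehicle, where edgeR called 0. With 1 library left out, the number ranged from 0 to 1 for Dex in GRwt/wt, 0 to 2 for GRL/L and 0 to 4 for GRD+L/D+L against GRwt/wt in vehicle, 0 to 1 and 1 to 3 for these with Dex, and 0 to 1 and 0 to 2 for GRD+L/D+L against GRD/D in vehicle and with Dex. The share of all genes called also moved, from 0.0893% to 2.39% for Dex in GRwt/wt, so that these numbers do not describe the members alone.

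Signs reversed only among LFC that were not called, the largest of them being Saa3 with Dex in GRwt/wt (1.66 with all libraries). For Dex in GRwt/wt, the LFC without both GRwt/wt vehicle libraries was 0.37 for Ptgs1, -0.046 for Ptges and -0.42 for Pla2g4a. Leaving out 1 library gave -0.88 to 0.70 for Ptgs1, -0.54 to 0.89 for Ptgs2, -0.037 to 1.21 for Pla2g4a and -0.24 to 2.42 for Saa3. With Dex in GRL/L, Anxa1 ranged from -0.044 to 0.11 and Crispld2 from -0.64 to 0.53. With Dex in GRD+L/D+L these were -0.060 to 0.16 and -0.56 to 0.23. Against GRwt/wt they were -2.23 to 2.12 (vehicle) and -2.07 to 1.37 (Dex) for Saa3 in GRD/D, and -0.78 to 0.18 for Crispld2 in GRL/L vehicle. Without both GRwt/wt vehicle libraries, the vehicle LFC was 0.17 and 0.57 for Crispld2 in GRD/D and GRL/L and -0.25 (GRL/L) and -0.082 (GRD+L/D+L) for Ptgs2, and the difference of Dex response for Anxa1 in GRD/D was 0.067.

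With a replicate block, 1 member instead of 0 was called for Dex in GRwt/wt, Crispld2 (LFC 1.12, adjusted p 0.0197), beside 1.26% of all genes. Ptgs2 there had an LFC of 0.38, and no other number of called members moved. Depth limits Saa3 and Lcn2, with single-digit counts in many libraries.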
